A study of Mus musculus with 41 samples.

Results

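The G1 cyclins, cyclin-dependent kinases (CDKs) and their inhibitors were followed in 41 mouse mammary tumors through 10 genes, chosen by symbol and not by their values, of the 47480 gene symbols in the deposited expression table. They were the D-type cyclins Ccnd1, Ccnd2 and Ccnd3, the E-type cyclin Ccne1, the kinases Cdk4 and Cdk6, the INK4 inhibitors Cdkn2a, Cdkn2b and Cdkn2c, and the retinoblastoma gene Rb1. All 10 were found in the table.

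The tumors were 28 Plk2-/-; p53-/- tumors (Plk2-null tumors below, named as PLK2null-1975) and 13 p53-/- tumors (named as p53null-2208L), with 1 RNA library per tumor. Both groups lacked p53 and were of the Balb/c strain, and the groups differed in whether Plk2, a polo-like kinase, was deleted too. Tumors of the Plk2-null group came from mutant mammary epithelial cells placed in the cleared fat pads of wild-type hosts, and tumors of both groups were propagated by orthotopic transplantation and were not treated. Age at collection was not given in the labels. All 13 p53-/- titles and no Plk2-null title carried a numbered tag whose meaning the labels do not give, so that whatever it marks and genotype cannot be told apart. Some tumors may have been passaged from others, and the labels do not say which. The tumors called primary below are PLK2null-7747, PLK2null-7748, PLK2null-7749, PLK2null-7750, PLK2null-7753, PLK2null-7763 and PLK2null-7764, the 7 whose numbers the study's plot of latency in primary tumors carries. Whether their RNA was taken before or after transplantation is not known here. Passage may therefore differ too where these 7 are set against the 13 p53-/- tumors. p-values over tumors treat each as a separate sample and may therefore be too small.

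In G1, growth signals raise the D-type cyclins, which bind CDK4 or CDK6. These kinases, followed by cyclin E with CDK2, phosphorylate the RB protein, which then releases the E2F factors that turn on genes of DNA replication. INK4 proteins bind CDK4 and CDK6 and block them, and RB loss removes the need for the D-type kinases. In mammary epithelium cyclin D1 is required for lobuloalveolar growth and is a frequent target of amplification in breast cancer.

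Values are estimated read counts per gene divided by the upper quartile of the tumor's nonzero values, on a linear scale where that quartile is 1000. Depth and the worth of 1 read were estimates, made by taking the most frequent low nonzero value of each tumor as 1 read. Estimated depth ran from 31910250 to 53244728 reads on genes in the Plk2-null tumors (median, 39053966). It ran from 29409609 to 70868124 in the p53-/- tumors (median, 58042777). A count of 3 reads, taken as the detection floor for counting error only, was worth 1.16 to 2.45 units. All 10 genes were far above it in every tumor. Plk2 itself was lower in the Plk2-null group, with a log2 fold change of -3.39 (SE 0.377, adjusted p = 1.30e-09 in limma). The library labelled p53null-7435 held only 186 units of Plk2, within the Plk2-null range of 36.6 to 553. The tumors PLK2null-732, PLK2null-733, PLK2null-743 and p53null-T11 were counted here as claudin-low. This class has mesenchymal features, and the study assigns its lines CL743 and T11 to it. Markers of breast epithelium were near absent in the 3 claudin-low Plk2-null tumors. The 8 markers summed to 53.6 units in PLK2null-743, 88.7 in PLK2null-733 and 404 in PLK2null-732, against 33791 to 299230 in the p53-/- tumors. The red blood cell markers summed to 59904 to 233900 units in the same 3 tumors, against at most 25666 in the others. Their T cell sums, 1543 to 2756 units, were also the highest, and PLK2null-1981 came next at 1528. PLK2null-732, PLK2null-733, PLK2null-743 and PLK2null-7763 stood apart through the sums of endothelial and adipocyte markers. The 6 endothelial markers summed to 78025 units in PLK2null-7763 and 165585 to 186496 in the other 3 tumors, against at most 16463 in the remaining 37. The 4 adipocyte markers summed to 51784 units in PLK2null-7763 and 99117 to 124691 in the other 3, against at most 3376 in the rest. p53null-T11 did not share this, with sums of 6876 and 419 units. Its epithelial sum was 33791 units. Its fibroblast sum was 225122 units, against 14888 to 56137 in the 3 claudin-low Plk2-null tumors, so the markers of the 4 claudin-low tumors were not alike. Only 1 of the 4 adipocyte markers had a mean of at least 100 units over the tumors. The high adipocyte sums therefore came mostly from 1 marker, and whether these tumors held adipocytes was not tested. Adipoq, Plin1 and Cidec were at 0 in some tumors, and Fabp4 was at 0 in none.

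Several of the genes are read from more than 1 start site. The Cdkn2a locus on the minus strand of chromosome 4 encodes p19Arf from an upstream first exon and p16Ink4a from a downstream first exon, and both transcripts share their later exons. The gene-level row sums them, so p16Ink4a and p19Arf cannot be told apart here. Their promoters and that of Cdkn2b, which lies next to them and encodes p15Ink4b, are shown because the high tumors described below raised these genes together. The sequences run from 250 bases before to 50 bases after the start site, from RefSeq on GRCm38.p6. Capitals mark an E2F match (TTTCCCGC, TTTCGCGC, TTTGCCGC or TTTGGCGC) or a cyclic AMP response element match (TGACGTCA or TAACGTCA), searched on both strands.
Cdkn2a, p19Arf start (chr4:89294570-89294869, minus strand): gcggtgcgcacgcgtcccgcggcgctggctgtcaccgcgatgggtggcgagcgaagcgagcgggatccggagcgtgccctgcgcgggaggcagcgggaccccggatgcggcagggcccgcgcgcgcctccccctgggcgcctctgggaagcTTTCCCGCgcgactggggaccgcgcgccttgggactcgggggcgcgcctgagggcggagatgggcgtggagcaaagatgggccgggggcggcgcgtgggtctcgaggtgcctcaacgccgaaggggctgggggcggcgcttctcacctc
Cdkn2a, p16Ink4a start (chr4:89282143-89282442, minus strand): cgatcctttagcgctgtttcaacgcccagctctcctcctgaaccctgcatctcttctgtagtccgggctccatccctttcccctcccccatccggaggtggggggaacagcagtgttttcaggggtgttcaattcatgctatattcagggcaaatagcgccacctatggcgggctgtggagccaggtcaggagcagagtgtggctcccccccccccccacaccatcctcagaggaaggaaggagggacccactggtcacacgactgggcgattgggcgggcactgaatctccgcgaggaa
Cdkn2b (chr4:89310983-89311282, minus strand): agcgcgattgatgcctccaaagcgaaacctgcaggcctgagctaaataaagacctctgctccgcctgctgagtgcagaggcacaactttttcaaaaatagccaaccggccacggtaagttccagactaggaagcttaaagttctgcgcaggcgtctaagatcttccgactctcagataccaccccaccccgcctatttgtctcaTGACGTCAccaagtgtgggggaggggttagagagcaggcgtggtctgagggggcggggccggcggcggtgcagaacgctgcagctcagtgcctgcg

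The p19Arf promoter held an E2F match, TTTCCCGC, at position -99 from the start site. E2F letters of this kind stood in 2.26% of 32851 promoters of the same length. The p16Ink4a promoter held none of the E2F, response element or AP-1 letters searched (AP-1, TGANTCA, in 7.81% of promoters). The Cdkn2b promoter held TGACGTCA at position -46, and response element letters stood in 2.03% of promoters. Promoters were listed for 7 of the 10 genes (Cdkn2a, Cdkn2b, Cdkn2c, Cdk4, Cdk6, Ccne1 and Ccnd3).

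**Figure D1:**
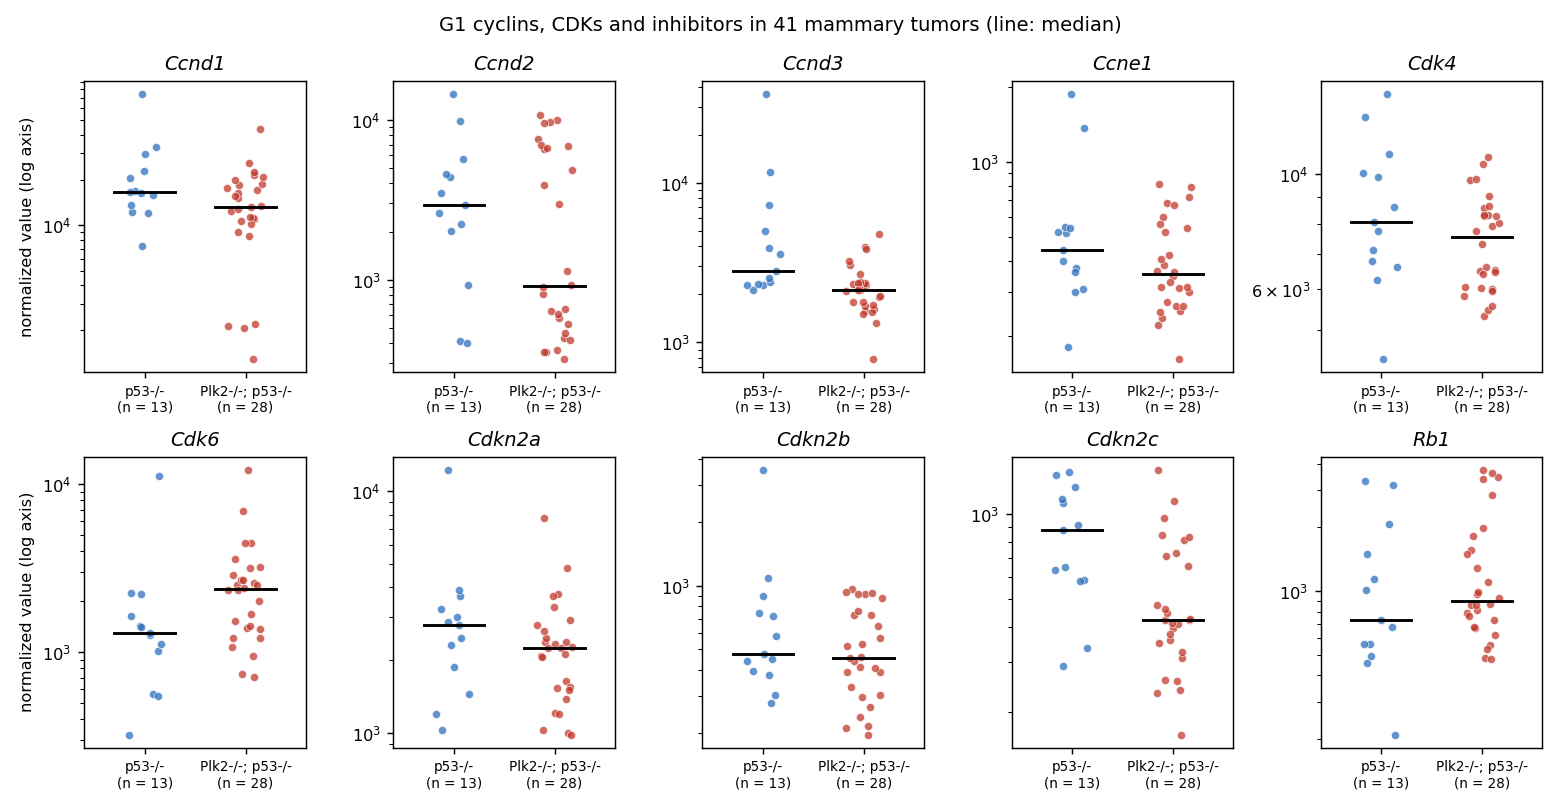
Normalized value (log axis) of the 10 genes in 13 p53-/- tumors (blue) and 28 Plk2-/-; p53-/- tumors (red); each point is 1 tumor and the line is the group median. The groups overlap for every gene, and single tumors stand far from the rest, such as 74191 units of Ccnd1 and 35796 units of Ccnd3 in p53-/- tumors.

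Few of these genes differed between the genotypes. Of the 10, 2 were lower in Plk2-null tumors, Ccnd3 and Cdkn2c, and none was higher, by limma on log2(value + 1) with a Benjamini-Hochberg adjusted p under 0.05. Across the 17208 genes tested, 39.5% were called, 24.3% higher and 15.3% lower, so 2 of 10 was below the share over all genes. The median log2 fold change of all tested genes was 0.10, and after rescaling by trimmed mean of M values (TMM) it was -0.02. Of all called genes, 61.4% were higher with the deposited scaling and 48.5% after TMM rescaling. Fold changes below are Plk2-null minus p53-/-, on the log2(value + 1) scale. In these bulk tumors, fewer cells of a type and less RNA per cell cannot be told apart.

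Among the D-type cyclins, Ccnd1 (chr7:144929931-144939925, minus strand) was the most abundant per length. Ccnd1 ranged from 1295 units in PLK2null-1986 to 43308 in PLK2null-7748 among Plk2-null tumors, with a median of 13306. In p53-/- tumors it ranged from 7295 in p53null-5329 to 74191 in p53null-2153L, with a median of 16503. The groups overlapped, with 1 p53-/- tumor above all Plk2-null tumors and 4 Plk2-null tumors below all p53-/- tumors. The log2 fold change was -0.72 (SE 0.361, 95% confidence interval -1.45 to 0.004, adjusted p = 0.108), which did not pass.

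The low end of Ccnd1 was made of tumors with near-identical profiles. PLK2null-1986, PLK2null-7750, PLK2null-1985 and PLK2null-1984 held 1295, 2074, 2138 and 2209 units, and the lowest of the other 37 tumors held 7295. Each of these 4 had the other 3 as its closest profiles over all tested genes (Pearson r of 0.973 to 0.986). Their Ccne1 values were 599 to 813 units, above the median of 361 in the other 37 tumors, and their Rb1 values were 476 to 558 against a median of 964. The labels do not say whether they descend from each other, so the 4 values may not be separate measurements.

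Ccnd2 (chr6:127125162-127152193, minus strand) varied most among the 10 genes. Its standard deviation over 41 tumors was 1.81 on the log2 scale, at the 86.8th percentile of tested genes. It ran from 320 units in PLK2null-1977 to 10758 in PLK2null-743 in the Plk2-null group (median, 913). In the p53-/- group it ran from 403 in p53null-2208L to 14439 in p53null-7435 (median, 2930). The Plk2-null tumors fell into a lower range of 320 to 1129 units and an upper range of 2972 to 10758 units. The upper range held the 3 claudin-low tumors at 9583 to 10758 units, PLK2null-1971, PLK2null-7763 at 7627 units, PLK2null-7748, PLK2null-1967, PLK2null-1974, and 4 tumors that were each other's closest profiles, PLK2null-1963, PLK2null-1964, PLK2null-1965 and PLK2null-7747, at 3914 to 6945 units. The genotype difference was -0.71 (SE 0.592, adjusted p = 0.357) and did not pass. Without PLK2null-7763 and the 3 claudin-low Plk2-null tumors, the 4 with the high endothelial and adipocyte sums, it was -1.13 (SE 0.558, adjusted p = 0.101) and did not pass either. In that fit, chosen after the marker sums were seen, 41.9% of all genes were called. The part of those markers in the high Ccnd2 values was not tested.

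Ccnd3 (chr17:47505051-47599691, plus strand) was the member with the largest genotype difference that passed. In Plk2-null tumors it ranged from 790 units in PLK2null-1963 to 4741 in PLK2null-743, with a median of 2130. Its 3 highest values in that group, 3825 to 4741 units, were those of the claudin-low tumors with high endothelial and adipocyte sums. In p53-/- tumors it ranged from 2127 in p53null-2331L to 35796 in p53null-10151, with a median of 2794. Of the Plk2-null tumors 14 of 28 lay below every p53-/- tumor, and 4 of 13 p53-/- tumors lay above every Plk2-null tumor. The log2 fold change was -0.95 (SE 0.264, adjusted p = 0.00357). The upper p53-/- tumors were p53null-10151, p53null-10152 at 11707 units, p53null-10155 at 7230 and p53null-2153L at 5005. Without p53null-10151, p53null-10152 and p53null-10155, a choice made after these values were seen, the log2 fold change was -0.40 with an adjusted p of 0.0842. Without the 4 Plk2-null tumors with high endothelial and adipocyte sums it was -1.10 with an adjusted p of 0.000895. With the 7 primary Plk2-null tumors against the 13 p53-/- tumors it was -0.81 with an adjusted p of 0.239, where 17.3% of all genes were called, 5.69% lower.

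Compared per kilobase of the principal transcript, cyclin D1 led the D-type cyclins in most tumors. The share of Ccnd1 in the summed D-type level per kilobase had a median of 74.8% in Plk2-null tumors and 69.1% in p53-/- tumors. Ccnd1 led in 24 of 28 and 12 of 13 tumors. Ccnd3 led in the others, namely PLK2null-7750, PLK2null-1984, PLK2null-1985, PLK2null-1986 and p53null-10151. In PLK2null-1986 the sum was 1582 units per kilobase, of which Ccnd3 gave 72.0%. In p53null-10151 the sum was 21884, of which Ccnd3 gave 77.4%. With the length of all exons of a gene in place of the principal transcript, a choice made after these values were seen, Ccnd1 led in 40 tumors and Ccnd3 in p53null-10151 alone. In PLK2null-1986 the shares of Ccnd1 and Ccnd3 were then 44.8% and 44.6%. The lead of Ccnd3 in the 4 Plk2-null tumors thus depended on which length was used. Ccnd2 reached its highest shares in p53null-7435 (32.5%) and PLK2null-1971 (31.8%).

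**Figure D2:**
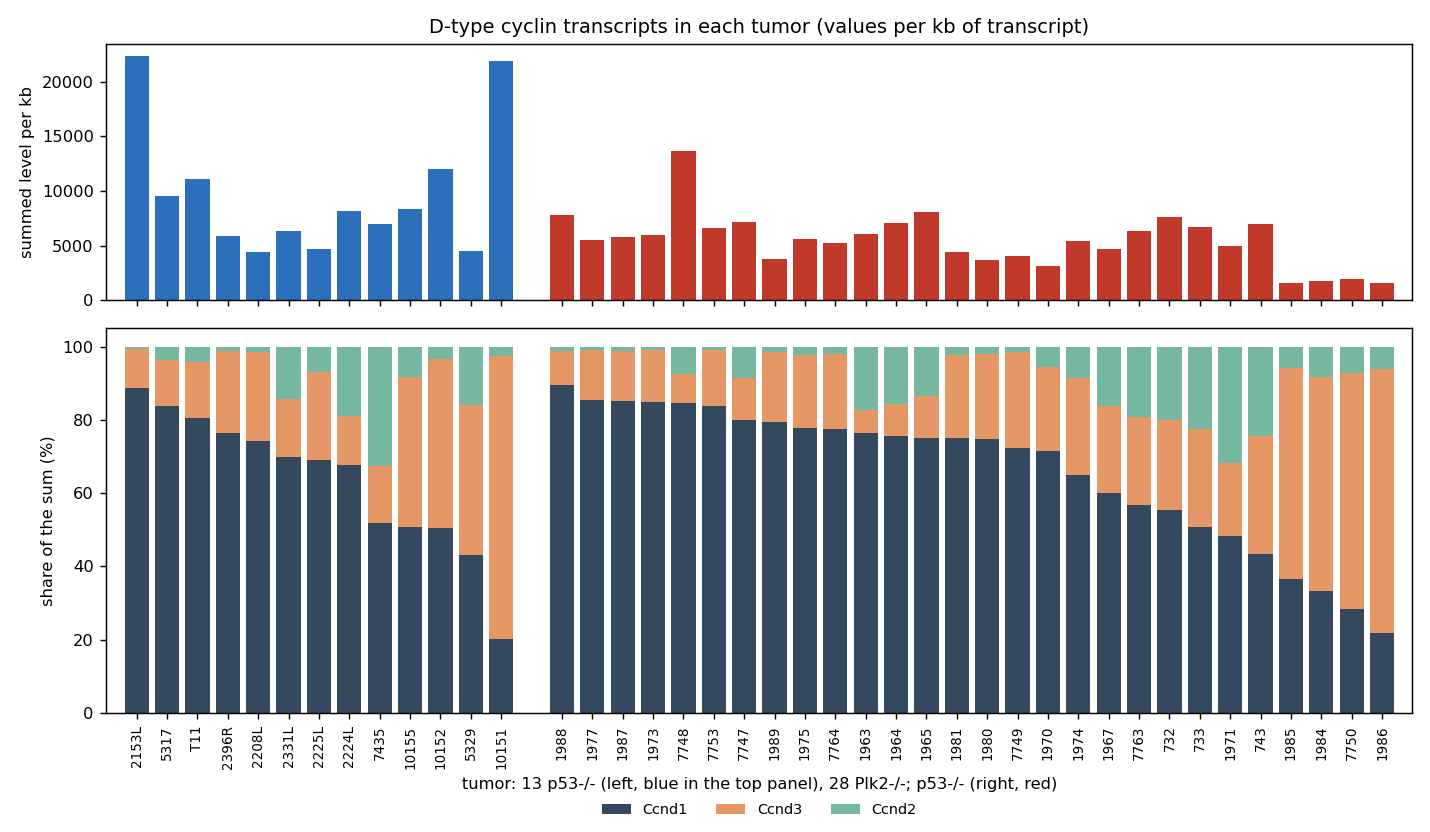
Top, summed level of Ccnd1, Ccnd2 and Ccnd3 per kilobase of transcript in each tumor; bottom, the share of each gene in that sum (%), for 13 p53-/- and 28 Plk2-/-; p53-/- tumors ordered by the Ccnd1 share. The sum is highest in p53null-2153L (22352) and p53null-10151 (21884), through Ccnd1 in the former and Ccnd3 in the latter.

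Ccne1 (chr7:38097984-38107534, minus strand), the E-type cyclin that activates CDK2, was high in a pair of p53-/- tumors. It ranged from 161 units in PLK2null-1989 to 813 in PLK2null-1986 in the Plk2-null group (median, 355). In the p53-/- group it ranged from 181 in p53null-5329 to 1876 in p53null-2225L (median, 443). p53null-2225L and p53null-2396R, at 1376 units, were the only tumors above the Plk2-null range. The difference of -0.35 (SE 0.237, adjusted p = 0.252) did not pass.

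The catalytic partners behaved differently from each other. Cdk4 (chr10:127063534-127067920, plus strand) ranged from 5313 to 10768 units in Plk2-null tumors (median, 7541) and from 4405 to 14210 in p53-/- tumors (median, 8082). Its standard deviation was at the 7.55th percentile of tested genes, the lowest of the 10. The difference was -0.18 (SE 0.124, adjusted p = 0.248) and did not pass. Cdk6 (chr5:3341485-3531008, plus strand) ranged from 711 units in PLK2null-1964 to 12102 in PLK2null-7748 in Plk2-null tumors (median, 2370). In p53-/- tumors it ranged from 323 in p53null-2153L to 11207 in p53null-5317 (median, 1290). Most Plk2-null tumors, 22 of 28, lay above the p53-/- median. The difference was 0.73 (SE 0.340, 95% confidence interval 0.048 to 1.42, adjusted p = 0.0821) and did not pass. Without p53null-5317 it was 0.99 with an adjusted p of 0.00937, so this call depended on 1 tumor. p53null-2153L thus held the highest Ccnd1 and the lowest Cdk6 of all 41 tumors.

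Among the INK4 inhibitors, Cdkn2c (chr4:109660876-109667189, minus strand), which encodes p18Ink4c, was lower in Plk2-null tumors. It ranged from 166 units in PLK2null-1975 to 1436 in PLK2null-7748 in that group (median, 422). In p53-/- tumors it ranged from 289 in p53null-2208L to 1415 in p53null-T11 (median, 883). The ranges overlapped, but 25 of 28 Plk2-null tumors lay below the p53-/- median and 11 of 13 p53-/- tumors lay above the Plk2-null median. The log2 fold change was -0.73 (SE 0.248, adjusted p = 0.0165). It was -0.64 with an adjusted p of 0.0501 without the 4 claudin-low tumors, where 42.4% of all genes were called (17.4% lower), and -0.55 with an adjusted p of 0.329 for the 7 primary tumors.

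Cdkn2a (chr4:89274471-89294653, minus strand) was expressed in every tumor, from 982 units in PLK2null-1963 to 7729 in PLK2null-1974 in Plk2-null tumors (median, 2235). In p53-/- tumors it ran from 1025 in p53null-10151 to 12258 in p53null-T11 (median, 2794). Cdkn2b (chr4:89306299-89311039, minus strand) ran from 198 units in PLK2null-1963 to 967 in PLK2null-1973 (median, 457), and from 278 in p53null-5329 to 3539 in p53null-T11 (median, 475). p53null-T11 held the highest value of both genes and PLK2null-1963 the lowest of both. The differences were -0.30 for Cdkn2a (SE 0.255, adjusted p = 0.365) and -0.32 for Cdkn2b (SE 0.268, adjusted p = 0.353), and neither passed.

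Rb1 (chr14:73183673-73325822, minus strand) ranged from 476 units in PLK2null-1986 to 3736 in PLK2null-1987 in Plk2-null tumors (median, 901). In p53-/- tumors it ranged from 210 in p53null-2225L to 3315 in p53null-5329 (median, 730). PLK2null-7753, PLK2null-1987, PLK2null-1988 and PLK2null-1989, which were each other's closest profiles, held 3379 to 3736 units, above all 37 other tumors. At the other end stood p53null-2225L, the tumor with the highest Ccne1, which also held 3907 units of Cdkn2a. The genotype difference was 0.30 (SE 0.331, adjusted p = 0.498) and did not pass.

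**Figure D3:**
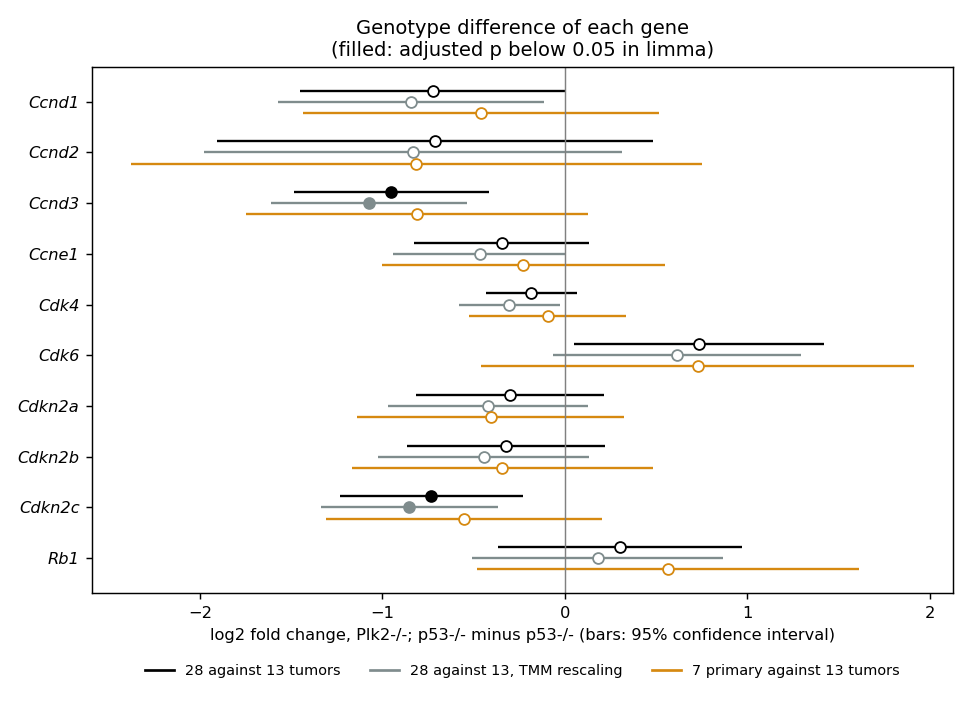
Log2 fold change of each gene, Plk2-/-; p53-/- minus p53-/-, with 95% confidence intervals, for 28 against 13 tumors with the deposited scaling (black), after TMM rescaling (grey), and for 7 primary against 13 tumors (orange); filled points have an adjusted p below 0.05. Ccnd3 (-0.95) and Cdkn2c (-0.73) are filled in the black and grey fits and no gene is filled in the orange fit.

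Markers of other cell types differed between the groups in part. All 3 skeletal muscle markers were lower in Plk2-null tumors, with sums of 2.24 to 2363 units against 3.68 to 32607 in p53-/- tumors. Acta1 and Myh4 were at 0 in some tumors. In the p53-/- tumors with the highest Ccnd3 the muscle sums were 23.6 units in p53null-10151, 7.36 in p53null-10152, 22.2 in p53null-10155 and 32607 in p53null-2153L, the highest of all 41. Epithelial markers Krt5 and Krt14 were lower as well (2 of 8 markers), with sums of 53.6 to 119280 against 33791 to 299230 units. The adipocyte marker Cidec was lower (1 of 4, sums of 225 to 124691 against 383 to 3376). Cd68 (1 of 5 macrophage markers, 7053 to 41342 against 7850 to 44369) and Mki67 (1 of 8 proliferation markers, 17012 to 68199 against 9534 to 35107) were higher. No T cell, B cell, endothelial, fibroblast or red blood cell marker passed. The endothelial sums ran from 2572 to 186496 units in Plk2-null tumors and from 2041 to 16463 in p53-/- tumors. Without the 4 claudin-low tumors, 3 of 5 T cell markers, all 3 red blood cell markers and 1 of 6 endothelial markers were lower too. In that fit 2 of 4 adipocyte and 3 of 8 epithelial markers were lower, beside 17.4% of all genes. Without the 4 tumors with high endothelial and adipocyte sums, the Cdkn2c difference was -0.75 with an adjusted p of 0.0204. There 2 of 6 endothelial, 2 of 5 T cell and all 3 red blood cell markers were lower, beside 17% of all genes. The part of these markers in the Ccnd3 and Cdkn2c differences was not tested.

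The order of the 10 genes by median level per kilobase over 41 tumors was Ccnd1 (4194 units per kilobase), Cdk4 (3785), Cdkn2a (2588), Ccnd3 (1088), Ccnd2 (351), Cdkn2b (330), Cdkn2c (194), Ccne1 (187), Rb1 (187) and Cdk6 (146). The ranges of each gene and the next in this order overlapped across tumors. The genes were measured in the same tumors, so this overlap does not show whether the order held within a tumor. The order depended on the length and on the group. By the length of all exons the median of Ccnd3 was 262, below the 330 of Cdkn2b. Within the Plk2-null tumors Cdk4 (3673) was above Ccnd1 (3558), Cdkn2b (329) above Ccnd2 (144), and Cdk6 (206) above Rb1 (194), Ccne1 (177) and Cdkn2c (171). Cdk6 formed a small share of the summed Cdk4 and Cdk6 level per kilobase, with a median of 4.63% in Plk2-null and 2.61% in p53-/- tumors. It reached 26.6% in PLK2null-7748, 19.8% in p53null-5317 and 17.5% in PLK2null-1971.

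The tumors with extreme values were then compared over the genes lying within 500 kb of each member. For each gene the log2(value + 1) in a tumor was set against its median over 41 tumors. In p53null-2153L, 6 of 9 tested neighbors of Ccnd1 were more than 1 above their median, against 10.6% of all tested genes in that tumor. The nearest were the fibroblast growth factor genes, with 1894 units of Fgf15, 14786 of Fgf4 and 526 of Fgf3. Fgf4 reached at most 6.11 units in the other 40 tumors, and was listed at 0 in 26 of 41. In PLK2null-7748, the other tumor with high Ccnd1, 3 of 9 neighbors were above, against 14.7% of all genes, and Fgf4 was near the floor. In PLK2null-1986, with the lowest Ccnd1, 1 of the 9 neighbors was more than 1 below, against 11.9% of all genes.

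Other extreme values were shared by neighboring genes in the same way, in 5 tumors. In p53null-7435, 7 of 8 neighbors of Ccnd2 were above, against 14.5% of all genes. In p53null-2396R all 4 neighbors of Ccne1 were above, with 6030 units of Uri1, 9328 of Plekhf1, 4880 of 1600014C10Rik and 2360 of Pop4, against medians of 1378, 591, 802 and 457 and 14.3% of all genes above. In PLK2null-1971, 12 of 14 neighbors of Cdk6 were above, against 15.8% of all genes. In p53null-T11 and PLK2null-1974, all 3 neighbors of Cdkn2a were above, against 11.6% and 7.39% of all genes, and Mtap held 5500 and 6498 units against a median of 1430. These neighbors include Cdkn2b, which was 7.72 times its median in p53null-T11 and 2.04 times in PLK2null-1974. p53null-T11 was also the tumor with the highest Cdkn2b, so this neighbor was not independent of the choice of tumor. At the low end, in PLK2null-1963, the tumor with the lowest Cdkn2a and Cdkn2b, 2 of the 3 neighbors of Cdkn2a were more than 1 below, against 9.33% of all genes. Of these 2, 1 was Cdkn2b itself, which the choice of tumor fixed in advance. Dmrta1, also among the 3 neighbors, had a median of only 4.79 units. The count of 2 of 3 can therefore not be weighed against the share of all genes. The counts of all 3 neighbors in p53null-T11 and PLK2null-1974 rest on the same genes and carry the same limit.

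At other extremes a smaller share of the neighbors lay on the same side. In p53null-2225L none of the 4 neighbors of Ccne1 was above, against 14.8% of all genes, although Ccne1 was 2.32 above its median. For Cdk6, 1 of 14 neighbors was above in p53null-5317 and none in PLK2null-7748. Of all genes 14.3% and 14.7% were above, and Cdk6 itself was 2.74 and 2.85 above. The median difference of the Cdk6 neighbors ran from -0.83 to -0.27 in p53-/- tumors and from -0.18 to 1.56 in Plk2-null tumors. The count in p53null-5317 was thus taken against medians over both groups. How often the neighbors of other genes separate by genotype was not tested. For Ccnd3 in p53null-10151, at 3.96 above its median, 7 of 19 neighbors were above, against 16.7% of all genes. In p53null-10152 it was 3 of 19, against 11.5%, and 6 of 19 were below, against 25.5%. The low Rb1 of p53null-2225L was matched by 1 of 8 neighbors, against 22.2% of all genes below, and the high Rb1 of PLK2null-1987 by 2 of 8, against 8.39% above. DNA copy number was not analysed here.

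**Figure D4:**
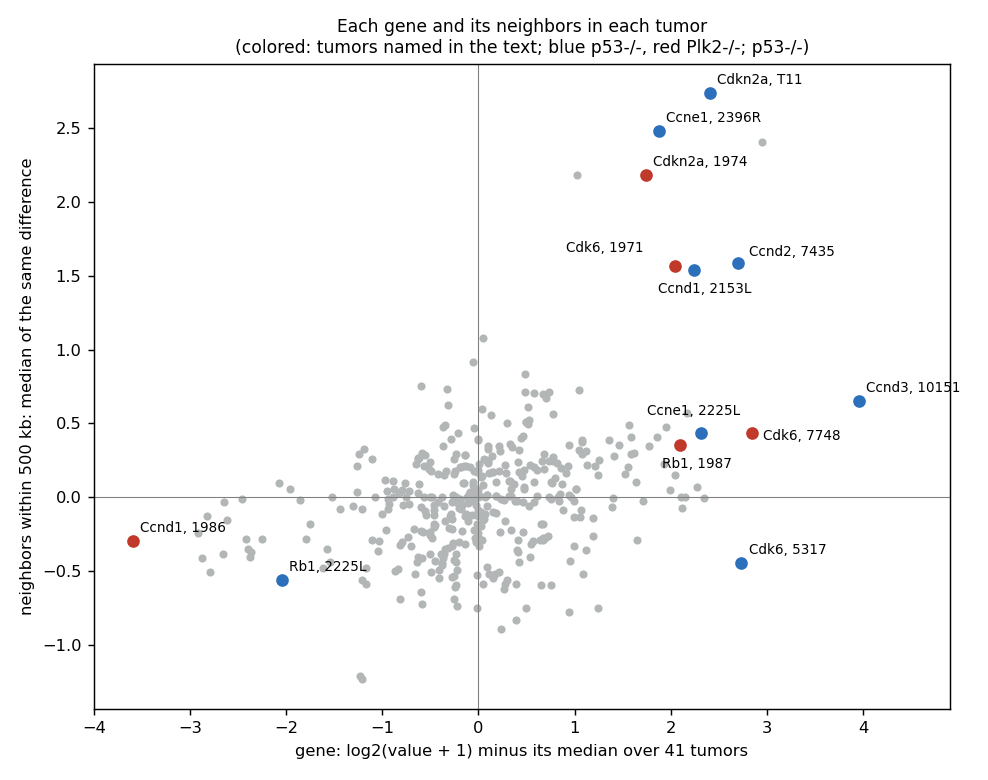
For each of the 10 genes in each of 41 tumors, its log2(value + 1) minus its median (horizontal) and the median of the same difference over its tested neighbors within 500 kb (vertical); grey points are tumors not named, blue p53-/- and red Plk2-/-; p53-/- tumors. Ccnd1 in p53null-2153L, Ccnd2 in p53null-7435, Ccne1 in p53null-2396R, Cdk6 in PLK2null-1971 and Cdkn2a in p53null-T11 and PLK2null-1974 lie high together with their neighbors. Their neighbor medians are 1.54 to 2.74. Cdkn2a has only 3 tested neighbors, and Dmrta1 among them has a median of 4.79 units. Cdk6 in p53null-5317 lies at -0.45, within the p53-/- range of -0.83 to -0.27 for the Cdk6 neighbors.

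The relations between members were examined in the 13 p53-/- tumors, over 4 pairs. Rb1 and Ccne1 had a Pearson r of -0.39 (permutation p = 0.183, adjusted p = 0.225) and a Spearman rho of -0.45 (permutation p = 0.123, adjusted p = 0.228). This value rested on single tumors. Without the 2 tumors farthest from the median of Rb1 the Pearson r was -0.76 (permutation p = 0.00601, adjusted p = 0.0240), without p53null-2396R -0.83 (permutation p = 0.00106, adjusted p = 0.00424), and without p53null-2225L -0.06. The Spearman rho did not pass in these settings. It was -0.59 without the 2 tumors (permutation p = 0.0610, adjusted p = 0.134), -0.69 without p53null-2396R (permutation p = 0.0170, adjusted p = 0.0603) and -0.30 without p53null-2225L. Rb1 and Cdkn2a had r = -0.36 (permutation p = 0.225, adjusted p = 0.225) and rho = -0.45 (permutation p = 0.130, adjusted p = 0.228), and r = -0.38 without the 2 tumors farthest out. Ccnd1 and Cdkn2a had r = 0.38 (permutation p = 0.189, adjusted p = 0.225) and rho = 0.30 (permutation p = 0.325, adjusted p = 0.325), and r = 0.48 without the 2 tumors farthest from the median of Ccnd1. Cdkn2a and Cdkn2b had r = 0.68 (permutation p = 0.0205, adjusted p = 0.0820) and rho = 0.41 (permutation p = 0.171, adjusted p = 0.228). Without p53null-T11 their r was 0.22, so the relation rested on that tumor. Without p53null-2225L their r was 0.79 (permutation p = 0.00804, adjusted p = 0.0322). Without p53null-10151 it was 0.80 (permutation p = 0.00627, adjusted p = 0.0251). Their rho in these 2 settings, 0.64 (permutation test, adjusted p = 0.119) and 0.55 (adjusted p = 0.163), did not pass. No pair passed the adjusted threshold with all 13 tumors.

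In the 28 Plk2-null tumors, where several tumors have near-identical profiles, the same relations are given as a description. Rb1 and Ccne1 had r = -0.74 and rho = -0.79, Cdkn2a and Cdkn2b r = 0.65 and rho = 0.69, Rb1 and Cdkn2a r = 0.49 and rho = 0.58, and Ccnd1 and Cdkn2a r = 0.40 and rho = 0.38. Over the 7 primary tumors alone, Rb1 and Ccne1 had r = -0.77 and rho = -0.89, and Rb1 and Cdkn2a r = 0.77 and rho = 0.89. In the same 7, Cdkn2a and Cdkn2b had r = 0.50 and rho = 0.32, and Ccnd1 and Cdkn2a r = 0.30 and rho = 0.25. The sign for Rb1 and Cdkn2a was positive in the Plk2-null tumors and negative in the p53-/- tumors, and this difference was not tested.

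**Figure D5:**
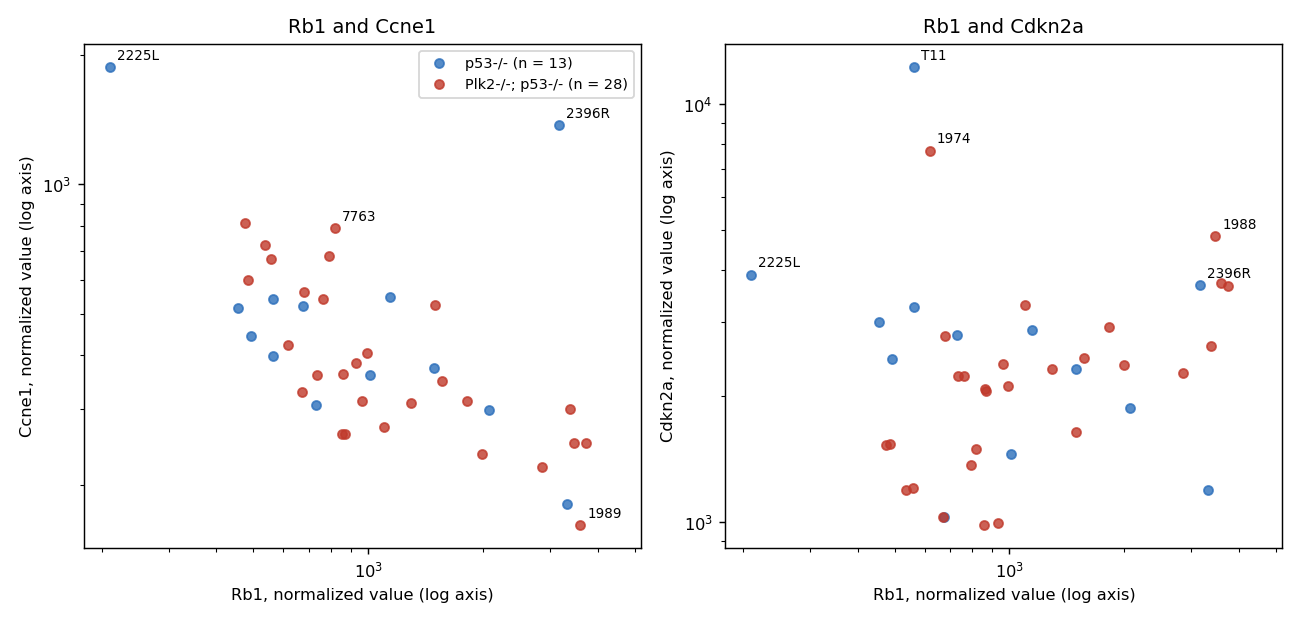
Rb1 against Ccne1 (left) and Rb1 against Cdkn2a (right), normalized values on log axes, 1 point per tumor, for 13 p53-/- (blue) and 28 Plk2-/-; p53-/- tumors (red). Ccne1 tends to be lower where Rb1 is higher, p53null-2396R (3158 units of Rb1, 1376 of Ccne1) stands apart from this, and p53null-T11 and PLK2null-1974 stand apart through Cdkn2a.

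For each member the 3 tested genes with the highest Spearman rho over the 41 tumors were taken as its closest patterns. The rho was highest for Ccnd2 with Hoxb3os (0.85), Tpst1 (0.84) and Ric3 (0.84). Ccne1 was closest to Spc25, a kinetochore gene (0.78), Abhd10 (0.77) and Tyms, thymidylate synthase (0.72). For Ccnd3 the closest were Rgmb (0.80), Rnf8 (0.78) and Mad2l1bp (0.75), all on chromosome 17 with Ccnd3 but 31702, 17890 and 1358 kb away. Within the p53-/- tumors their rho was 0.65, 0.28 and 0.42. For Cdk4 they were Fzr1 (0.81), Shmt2 (0.80) and Snrpf (0.80), all on chromosome 10 with Cdk4, at 45689, 454 and 33478 kb. Those of Cdkn2a included Phc2 (0.71) and Nudc (0.63), both on chromosome 4 with Cdkn2a, at 39380 and 44251 kb. Cdkn2b was closest to Smad7 (0.79), Azin2 (0.77) and Cd44 (0.76), Cdkn2c to Chchd7 (0.79), Btbd11 (0.76) and Xkr5 (0.75), and Rb1 to Ccdc141 (0.75), Vdr (0.75) and Cp (0.74). Azin2 and Chchd7 also lie on chromosome 4 with their members, at 39624 and 105716 kb. How often a closest gene would lie on the same chromosome was not tested. Ccnd1 was closest to Denr (0.69), Pole3 (0.67) and Chchd7 (0.67), and Cdk6 to Elf4 (0.71), S100a7a (0.67) and Lmln (0.66). Some tumors have near-identical profiles, so these values describe the 41 libraries only.

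The other genes of the pathway moved in part. The remaining CDK inhibitors, Cdkn2d and the CIP/KIP genes Cdkn1a, Cdkn1b and Cdkn1c, gave no call among 4, with a median log2 fold change of -0.51 against 0.10 over all genes. Cdkn2d was called lower after TMM rescaling (-0.56, adjusted p = 0.0188), against -0.44 (adjusted p = 0.0835) with the deposited scaling. Of 10 other G1/S cyclins and kinases, 2 were higher and 2 lower, and the 4 calls among 10 stand beside 39.5% over all genes. Skp2, which directs the degradation of p27, was higher by 0.92 (SE 0.226, adjusted p = 0.00105) and Cdk2, the partner of cyclin E, by 0.37 (SE 0.129, adjusted p = 0.0191), though Cdk2 did not pass after TMM rescaling (0.25, adjusted p = 0.131). Mnat1, a subunit of the CDK-activating kinase, was lower, at a log2 fold change of -0.84 (SE 0.133, adjusted p = 2.25e-06). Ccna1, the germ cell form of cyclin A, was at -2.01 (adjusted p = 0.0326) with a Plk2-null median of 0.247 units, below the floor. With the 7 primary tumors Skp2 and Mnat1 passed, where 17.3% of all genes were called.

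Downstream of the kinases, 5 of 12 pocket protein, E2F and DP genes were higher and none lower, with a median of 0.41. Over all genes 24.3% were higher and 39.5% were called, so 5 of 12 was near the share called. They were E2f7 (0.96), Rbl2 (0.78), E2f3 (0.59), E2f6 (0.46) and E2f5 (0.36), of which Rbl2 encodes the RB relative p130 and E2f7 an atypical, repressive E2F. After TMM rescaling 3 of the 12 were higher and with the 7 primary tumors 2 were, E2f3 and Tfdp2, where 17.3% of all genes were called. Of 20 replication genes that E2F factors are known to induce, 3 were higher and none lower (Cdc7 at 1.31, Cdc6 at 0.63 and Mcm4 at 0.40), with a median of 0.04. The count was 2 higher and 2 lower after TMM rescaling, the lower ones being Mcm7 and Pcna, and with the 7 primary tumors Cdc7 alone passed. The share called, 15%, was below the 39.5% over all genes.

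Of 8 genes for turnover of cyclins D and E, 5 were higher and 1 lower, beside 24.3% and 15.3% over all genes. Usp28 (0.45), Gsk3b (0.42), Fbxw7 (0.42), Ambra1 (0.40) and Cul3 (0.29) were higher and Fbxo31 was at -0.42. Fbxw7 recognizes cyclin E and Ambra1 recognizes D-type cyclins for degradation. After TMM rescaling 2 were higher and 1 lower, and with the 7 primary tumors none of the 8 passed. Among 13 regulators of the Cdkn2a locus, the H3K27 demethylase gene Kdm6b (0.94, adjusted p = 2.66e-06) and the Polycomb gene Bmi1 (0.45, adjusted p = 0.00832) were higher, a count of 2 of 13 beside 24.3% over all genes. After TMM rescaling, Cbx8 and Tbx3 were also called, both lower, and with the 7 primary tumors Kdm6b alone passed. In the arm that p19Arf acts on, 3 of 6 genes were higher, beside the same 24.3%, with Mdm4 at 1.72 (SE 0.136, adjusted p = 1.57e-13), Huwe1, which encodes an ubiquitin ligase bound by Arf, at 0.94 and Trp53 at 0.64. Mdm4 and Huwe1 also passed after TMM rescaling and with the 7 primary tumors, and Trp53 in neither. Which exons the deleted p53 allele lacks was not resolved at the level of genes.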

How the data were processed

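RNA from 41 mouse mammary tumors was compared, 28 Plk2-/-; p53-/- and 13 p53-/-, grouped by the sample labels. Per the submitters' processing notes, alignment was by STAR 2.7.6a to mm10 and gene quantification by Salmon 1.4.0, with Picard 2.22.4 and SAMtools. The deposited values are a signal on a linear scale, scaled by the authors so that each tumor's nonzero upper quartile equals 1000. Within a tolerance of 0.1 read, 77.9 to 80.5% of nonzero values in a tumor were whole reads, too few to recover counts, so no count model was used. Here limma 3.58.1 in R 4.3.3 was run without trend on log2(value + 1) for the 17208 genes with a mean of at least 10, and Benjamini-Hochberg adjusted p under 0.05 was called. Permutation tests of correlations were two-sided with 100000 resamples. Descriptions and figures were made in Python 3.11.15 with pandas 2.3.3, scipy 1.17.1, matplotlib 3.10.9 and numpy 2.4.6. Scripts were tested on simulated data. Positions came from GENCODE vM21 on GRCm38, the assembly of mm10, in which 95.0% of symbols matched, and levels per kilobase from the principal transcript of each gene. Named genes were the 10 members, called genes of the pathway lists, and for each member its 3 closest patterns, of which 1 gene is not reported here. The members, gene lists and marker lists were chosen with earlier results of these data known. No duplicated library was found. Protein sequences and copy number were not used here.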

Additional observations from a re-analysis of the deposited data

How the results depend on the processing

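No paired analysis was possible because the labels carry no replicate numbers shared between the groups. The count of all genes called was 6802, and 6346 to 7074 when each tumor was left out in turn. It was 2942 with only the 7 primary tumors, a setting with fewer samples. The count of members called was 2, and 2 to 3 when each tumor was left out. It was 1 without the 4 claudin-low tumors, 0 with the 7 primary tumors and 1 without p53null-10151, p53null-10152 and p53null-10155 (chosen after seeing the data). The causes of these moves were not tested. Over all 10 members and 51 other settings each, no difference changed its direction. When each tumor was left out, the adjusted p was 0.00219 to 0.0110 for Ccnd3 and 0.00518 to 0.0363 for Cdkn2c. Another pseudocount, other filters on low values, TMM rescaling, quantile normalization and a limma trend left the members called at 2, as did leaving out PLK2null-732, PLK2null-733, PLK2null-743 and PLK2null-7763 (chosen after seeing the data). The tumors led by Ccnd3 per kilobase were 5 by the principal transcript and 1 by the length of all exons (chosen after seeing the data). In the p53-/- tumors, leaving out each tumor gave r of -0.83 to -0.057 for Rb1 and Ccne1, 0.22 to 0.80 for Cdkn2a and Cdkn2b, -0.50 to -0.22 for Rb1 and Cdkn2a, and 0.24 to 0.58 for Ccnd1 and Cdkn2a. Without the 2 tumors farthest from the median of Rb1, r for Rb1 and Ccne1 was -0.76. The 13 p53-/- tumors, the unknown passaging of the Plk2-null tumors and the title tag tied to genotype limit each comparison. All members were above the counting floor in every tumor.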
